A study of Mus musculus with 4 samples.

Results

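The AP-1 family genes Fos, Fosb, Fosl1, Fosl2, Jun, Junb, Jund and Atf3 were followed in the open chromatin of LβT2 cells, an established mouse line with features of the pituitary gonadotrope. Their cell line label is LbT2, while the titles have LbT2b and the growth protocol LβT2b. Open chromatin was read by ATAC-seq, which uses a transposase to cut and tag DNA wherever it is accessible. Each of the 4 libraries came from these cells held overnight without serum and then given vehicle for 6 h (2 libraries) or activin A at 1 nM for 6 h (2 libraries). The 4 deposited peak lists held 417506 peaks, and those whose annotated gene name was one of the 8 members were taken, which left 89 peaks: 19 in vehicle library 1, 32 in vehicle library 2 and 19 in each activin library. Merged where they overlapped between libraries, they formed 34 of the 255101 regions in the series.

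AP-1 is a dimer of basic leucine zipper proteins. Commonly a Fos-type protein (Fos, Fosb, Fosl1, Fosl2) or an Atf-type protein such as Atf3 joins a Jun-type protein (Jun, Junb, Jund). Fos, Fosb, Jun, Junb and Atf3 are immediate-early genes, switched on within minutes to hours of a stimulus by factors already present in the cell. In the gonadotrope, AP-1 is known as a mediator of gonadotropin-releasing hormone signalling to the follicle-stimulating hormone β subunit gene, where activin acts through SMAD proteins.

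Sequencing gave 172146474 to 224226184 high-quality autosomal reads per library, and read enrichment at transcription start sites was 2.72 and 2.48 under vehicle against 3.12 and 3.04 under activin. Vehicle library 2 stood apart in its peak list, with 178358 peaks against 70692 to 85112 in the other libraries. Strong peaks, here those whose −log10 q reached 5, numbered 12377 and 12760 under vehicle and 19819 and 15807 under activin. The −log10 q is the peak caller's confidence that a peak stands above its background, in that library alone. The part that depth, enrichment and list length had in the differences below was not tested. A promoter peak was present in all 4 libraries for 10 of 11 gonadotrope markers (Lhb, Cga, Gnrhr, Nr5a1 and others, with Fshb the exception) and for 0 of 6 markers of other pituitary lineages. Of those 6, Pomc had one in both vehicle libraries, Gh in vehicle library 2 and activin library 1, and Tbx19 in vehicle library 2, none with a −log10 q above 3.20. Some gonadotrope promoters were as weak. Pitx1 had 1.63 and 2.31 under vehicle and 4.10 and 1.37 under activin, and Nr5a1 had 2.97 in vehicle library 1. The rest of the 10 were above 3.20 in every library.

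Sequence just upstream of a start site is shown for the 5 members that had a promoter peak in all 4 libraries and whose windows held a match to one of the motifs searched. The runs are the 250 bases before the RefSeq start, read 5′ to 3′ on the gene's strand, from RefSeq on GRCm38.p6 (for Fosb, the promoter table's start is 0.1 kb from that of the gene table). Capitals mark TGACG, the core of the cAMP response element (CGTCA where it lies on the other strand), or in Jun the variant TGACATCA.
Fos, chr12:85473640-85473889, plus strand: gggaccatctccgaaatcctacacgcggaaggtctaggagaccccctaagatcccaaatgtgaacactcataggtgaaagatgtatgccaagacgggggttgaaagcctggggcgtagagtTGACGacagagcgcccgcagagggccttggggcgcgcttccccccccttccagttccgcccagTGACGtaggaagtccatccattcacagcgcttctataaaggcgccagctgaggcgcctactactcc
Fosb, chr7:19310046-19310295, minus strand: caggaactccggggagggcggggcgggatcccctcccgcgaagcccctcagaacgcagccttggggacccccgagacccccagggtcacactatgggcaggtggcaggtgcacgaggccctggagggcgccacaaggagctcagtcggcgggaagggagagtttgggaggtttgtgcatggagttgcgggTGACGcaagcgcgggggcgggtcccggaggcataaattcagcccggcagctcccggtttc
Jun, chr4:95052223-95052472, minus strand: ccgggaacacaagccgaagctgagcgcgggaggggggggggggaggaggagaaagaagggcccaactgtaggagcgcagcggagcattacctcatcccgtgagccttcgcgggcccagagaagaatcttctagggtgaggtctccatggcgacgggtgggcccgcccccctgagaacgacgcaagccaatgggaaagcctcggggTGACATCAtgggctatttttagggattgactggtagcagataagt
Junb, chr8:84978749-84978998, minus strand: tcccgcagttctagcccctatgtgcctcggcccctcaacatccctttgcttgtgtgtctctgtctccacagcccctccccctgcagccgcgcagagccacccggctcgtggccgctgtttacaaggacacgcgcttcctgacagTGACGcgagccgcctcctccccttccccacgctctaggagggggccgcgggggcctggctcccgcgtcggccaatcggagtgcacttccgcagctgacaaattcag
Atf3, chr1:191183334-191183583, minus strand: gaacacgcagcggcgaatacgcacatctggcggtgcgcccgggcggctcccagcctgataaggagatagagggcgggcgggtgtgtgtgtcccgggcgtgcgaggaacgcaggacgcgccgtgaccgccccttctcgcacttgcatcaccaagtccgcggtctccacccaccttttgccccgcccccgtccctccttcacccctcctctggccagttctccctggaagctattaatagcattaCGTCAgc

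The core TGACG, searched on both strands, began 129 and 66 bases before the start in Fos, 60 in Fosb, 106 in Junb and 7 in Atf3. It was in 4 of the 7 member windows that the table of promoters held (Fosl1 was not among them), and in 20.8% of all 32851 windows of 300 bases, 250 before and 50 after a start. TGACATCA was in the Jun window alone among the members, 45 bases before the start, and in 3.62% of all windows. Both were added to the search after the windows had been seen. The 4 motifs chosen first had a match in 0 of 7 member windows: TGACTCA, the AP-1 element itself (5.20% of all windows), TGACGTCA, the full cAMP response element, which contains that core (1.79%), the CArG box of serum response factor (1.63%) and GTCTAGAC, a palindromic SMAD element (0.213%). These letters were searched in this window only. The Fos, Jun and Atf3 runs were covered whole by peaks in every library, the Junb run to between 92.8% and 97.2%, and the Fosb run to 87.2% and 56.4% under vehicle and 100% and 93.6% under activin.

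Fos (ENSMUSG00000021250), whose protein is the founding partner of Jun in the dimer, held 19 of the 34 regions and 44 of the 89 peaks by gene name, the most of any member. Of its 19 regions, 5 held a peak in all 4 libraries, 3 in 3 libraries, 1 in 2 and 10 in a single library. Regions in all 4 libraries numbered 5 for Fos and, with 1 under another gene name, 5 for Fosb. The 5 lay between 18.4 kb upstream and 12.2 kb downstream of the RefSeq start (chromosome 12, 85473890, plus strand), with gaps of 6.1, 9.2, 3.1 and 6.8 kb. They were 4 distal regions and the promoter, and 2.09% of the 35667 gene names in the annotation had as many distal regions in all 4 libraries. Distances here are from region centres to the RefSeq start, since the deposited annotation measured from a start 0.8 kb further into Fos.

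The strongest peak of the family lay 12.2 kb downstream of the Fos start, beyond the 3′ end of the gene in intergenic sequence (chr12:85485595-85486517). Its −log10 q was 36.6 and 37.6 under vehicle and 46.8 and 47.5 under activin. Its fold enrichment over the caller's background, the authors' value, was 6.26 and 5.88 under vehicle and 5.62 and 6.77 under activin. Peak confidence was thus higher in both activin libraries while the enrichment values of the groups overlapped. By −log10 q this peak stood among the top 0.649% and 0.204% of the vehicle lists and the top 1.08% and 0.631% of the activin lists. It held 684, 760, 1223 and 833 high-quality reads in vehicle libraries 1 and 2 and activin libraries 1 and 2.

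Read density, the high-quality reads in a peak divided by its length in kb and scaled to 1000000 high-quality reads of that library, was 6.06 and 5.08 under vehicle (5.57 ± 0.693, SD, n = 2) and 5.91 and 7.34 under activin (6.62 ± 1.01, SD, n = 2) at this Fos region. The groups overlapped, since activin library 1 lay below vehicle library 1. For the test, the log2 density was centred on each library's median over all shared regions, those with 1 peak per library and a common part of at least 50%. The log2 difference, activin minus vehicle, was −0.03 ± 0.13 (SE, 95% interval −0.32 to 0.26), with an adjusted p of 0.968 by limma with Benjamini-Hochberg adjustment. Of the 13871 shared regions, 5.92% had a mean density at least as high, and the median was 2.80.

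The other strong distal region of Fos was 18.4 kb upstream (chr12:85454948-85455943), overlapping the RefSeq gene Gm38543. Its −log10 q was 21.3 and 16.5 under vehicle and 26.1 and 20.4 under activin, and its density was 4.00 and 3.41 against 4.55 and 3.77. Neither measure separated the groups, because activin library 2 lay below vehicle library 1 in both. The log2 difference was −0.11 ± 0.10 (95% interval −0.34 to 0.13, limma adjusted p 0.756).

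At the Fos start itself the peaks formed a pair in 3 libraries (chr12:85471922-85474414). The upstream peak of the pair, 1.6 kb before the start, had a −log10 q of 12.6 and 12.7 under vehicle and 17.7 in activin library 2. The peak over the start had 8.08, 7.47 and 11.7 in the same libraries, so the upstream peak was the stronger one in each. In activin library 1 they were joined into 1 peak of 2352 bp with a −log10 q of 18.6. Because of this joining the region was not among the shared ones and was measured with reads and lengths summed over its peaks. Its summed density was 3.19 and 2.92 under vehicle (3.06 ± 0.189, SD, n = 2) and 3.64 and 3.73 under activin (3.69 ± 0.0660, SD, n = 2), with both activin libraries above both vehicle libraries. In the limma fit over all 28977 autosomal regions present in every library, which is centred on its own median, the log2 difference was 0.10 ± 0.12 (95% interval −0.18 to 0.38, adjusted p 0.790).

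The remaining 2 Fos regions found in all libraries were weak under vehicle. The region 11.5 kb upstream (chr12:85462038-85462671) had a −log10 q of 2.42 and 1.32 under vehicle and 5.01 and 2.55 under activin, and the region 4.3 kb downstream, at the transcript end (chr12:85477474-85478817), had 1.14 and 2.07 against 5.51 and 6.15. The libraries' peaks covered different stretches, with a common part of 31.9% and 2.3% of the union. With summed reads and lengths, their log2 differences were 0.04 ± 0.22 (95% interval −0.49 to 0.57) and 0.16 ± 0.31 (95% interval −0.56 to 0.89), with limma adjusted p-values of 0.966 and 0.884. Without vehicle library 1 the downstream one was −0.29. Next to the strongest region, a peak 13.9 kb downstream (chr12:85487572-85487947) was called with a −log10 q of 5.10 and 5.47 under activin, 1.60 in vehicle library 2, and not at all in vehicle library 1. A region 31.1 kb downstream showed the opposite presence, with 1.99 and 2.05 in the vehicle libraries and no call under activin. The remaining Fos regions outside these had no −log10 q above 2.51, and 10 of them were called in 1 library alone.

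**Figure D1:**
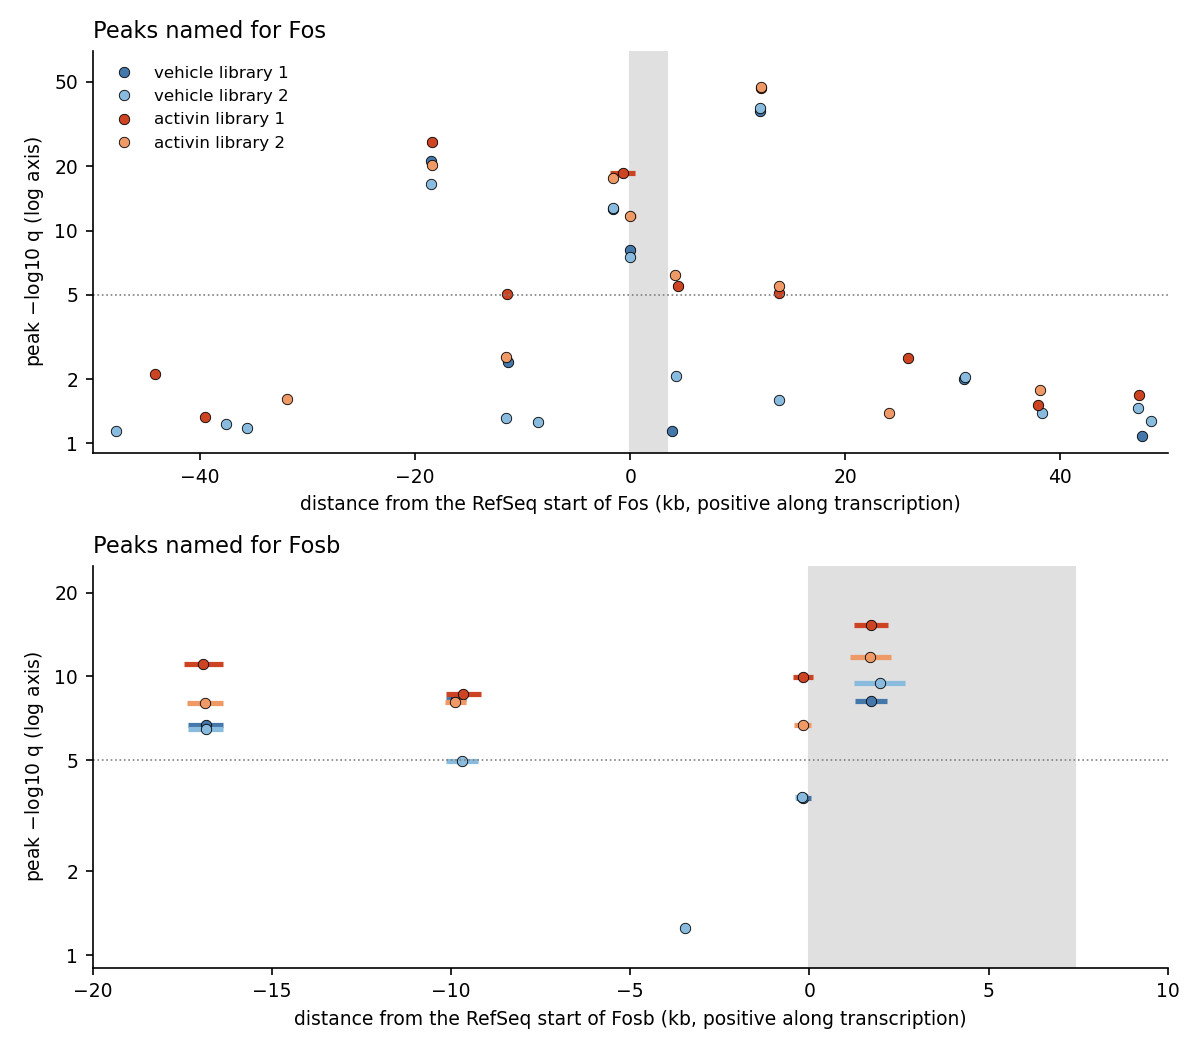
Called peaks named for Fos (top) and Fosb (bottom) by distance from the RefSeq start in kb (x axis) and −log10 q on a log axis (y axis). Points are peak centres and bars peak lengths, coloured by library; the grey band is the gene and the dotted line marks a −log10 q of 5. The Fos peak 12.2 kb downstream stood highest in each library, and each of the 4 Fosb regions called in every library was highest in activin library 1.

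Fosb (ENSMUSG00000003545), the close paralog of Fos, had 5 regions, of which 4 were present in all libraries, all 4 were shared, and 3 were distal. These 3 formed the only cluster of enhancer-like regions in the family under the rule used, which asks for at least 3 distal regions in all 4 libraries and a fixed limit on the gaps between them. The cluster ran over 20.1 kb (chr7:19307438-19327572) with a largest gap of 10.3 kb, and 1.35% of gene names had one. The promoter lay inside the run. Fos had no cluster under this rule. The gap of 14.8 kb between its distal regions on either side of the promoter was over the limit. That gap held the peak 1.6 kb before the Fos start, annotated as intergenic in both vehicle libraries and activin library 2. It was counted with the promoter because the joined peak of activin library 1 merged it with the peak over the start. The absence of a Fos cluster may thus rest on this merging. A count with that peak as a separate distal region was not made.

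The strongest Fosb region was in intron 1 of 3, 1.9 kb downstream of the start (chr7:19307438-19308989). Its −log10 q was 8.15 and 9.44 under vehicle and 15.3 and 11.8 under activin. Its density was 3.25 and 2.33 under vehicle (2.79 ± 0.651, SD, n = 2) and 4.09 and 3.67 under activin (3.88 ± 0.299, SD, n = 2). Both activin libraries were above both vehicle libraries in each measure, also after centring. The log2 difference was 0.22 ± 0.12 (95% interval −0.06 to 0.50), with an unadjusted p of 0.111 and an adjusted p of 0.601 by limma. It ran from 0.07 without vehicle library 2 to 0.37 without vehicle library 1. With log2 reads not divided by peak length it was −0.05, and the peaks measured 895 and 1443 bp under vehicle and 961 and 1136 bp under activin.

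The Fosb promoter peak (chr7:19310005-19310566) was the weakest of the 4 Fosb regions in both vehicle libraries, with a −log10 q of 3.67 and 3.70, and had 9.99 and 6.72 under activin. Its density was 3.05 and 2.67 under vehicle (2.86 ± 0.267, SD, n = 2) and 3.83 and 3.62 under activin (3.72 ± 0.154, SD, n = 2). The groups did not overlap, also after centring. On the log2 scale, activin minus vehicle was 0.11 ± 0.10 (95% interval −0.12 to 0.33, limma adjusted p 0.750).

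The other Fosb regions lay upstream of the gene, and their centred groups overlapped. At 9.7 kb upstream (chr7:19319271-19320292) the −log10 q was 8.29 and 4.98 under vehicle and 8.63 and 8.10 under activin, and the densities of 2.79 and 2.04 overlapped those of 2.31 and 2.95. The log2 difference there was −0.15 ± 0.17 (95% interval −0.53 to 0.23, limma adjusted p 0.799). At 16.9 kb upstream (chr7:19326471-19327572) the −log10 q was 6.71 and 6.50 under vehicle and 11.1 and 8.03 under activin. Densities of 3.15 and 2.63 there lay below those of 3.66 and 3.32, but the centred values overlapped, with a log2 difference of 0.00 ± 0.10 (95% interval −0.23 to 0.24, limma adjusted p 0.998).

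Fosl1 (ENSMUSG00000024912) and Fosl2 (ENSMUSG00000029135) encode the Fos-related antigens, shorter relatives of Fos in the same dimers. The Fosl1 promoter (chr19:5447313-5448733) was the weakest member promoter called in all libraries, with a −log10 q of 1.43 and 1.91 under vehicle and 4.42 and 4.18 under activin. Its density was 1.55 and 2.45 under vehicle and 2.26 and 2.81 under activin, and the groups overlapped. With summed peaks the log2 difference was 0.20 ± 0.28 (95% interval −0.47 to 0.88, limma adjusted p 0.833), and it ran from −0.21 to 0.62 when each library was left out, the lowest without vehicle library 1 and the highest without vehicle library 2. By gene name, Fosl2 had only a weak region in exon 4 of 4 (chr5:32155047-32155640), with a −log10 q of 1.45 and 1.18 under vehicle and no call under activin.

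The promoter with the highest mean density in the family was that of Fosl2, and it did not carry the Fosl2 name. In the deposited annotation, which gives the gene name and the overlapped feature in separate columns, its peak (chr5:32134985-32136818) was annotated as the Fosl2 promoter and named for a neighbouring gene, Gm10463. Its −log10 q was 18.6 and 14.7 under vehicle and 32.8 and 24.8 under activin. Its density was 5.21 and 4.34 under vehicle (4.77 ± 0.619, SD, n = 2) and 6.40 and 6.00 under activin (6.20 ± 0.282, SD, n = 2), with no overlap between groups before or after centring. The log2 difference was 0.11 ± 0.09 (95% interval −0.10 to 0.31, limma adjusted p 0.717).

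Such naming touched 12 regions at member loci beyond the 34, 8 of them at Atf3. The 29 peaks counted there, and the regions they lie in, were found after the values had been seen, by the gene identifier of the annotated feature or by overlap with the member's RefSeq gene. Over all promoter-annotated peaks, between 23.7% and 24.8% per library carried the name of a gene other than the promoter's own. Counts by gene name for Fosl2, Jund and Atf3 therefore left out their main peaks, and 4 of the 12 regions held a peak in every library.

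Jun (ENSMUSG00000052684), the main Jun-type partner and itself a target of AP-1, had a single region, which spanned the promoter and much of this intronless gene (chr4:95050679-95053581) and also overlapped the RefSeq gene Junos. Its −log10 q was 11.9 and 9.72 under vehicle and 16.5 and 14.2 under activin. Its density was 3.54 and 2.43 under vehicle (2.98 ± 0.783, SD, n = 2) and 4.01 and 3.59 under activin (3.80 ± 0.303, SD, n = 2). Both activin libraries were above both vehicle libraries in these measures, but the centred densities overlapped. Its log2 difference came to 0.10 ± 0.13 (95% interval −0.20 to 0.40, limma adjusted p 0.834), and it was −0.08 without vehicle library 2.

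Junb (ENSMUSG00000052837), a Jun-type protein often induced together with Fos, had its peaks at both ends of the gene (chr8:84975330-84978991). The peak at the 3′ end had a −log10 q of 10.2 and 6.66 under vehicle and 11.3 in activin library 2, against 4.02, 6.18 and 5.99 for the peak at the start in the same libraries. In activin library 1 a single peak of 3655 bp with a −log10 q of 13.1 covered both. Summed density was 3.07 and 3.15 under vehicle (3.11 ± 0.0514, SD, n = 2) and 3.40 and 3.59 under activin (3.49 ± 0.138, SD, n = 2), a separation that was gone after centring. The log2 difference was 0.00 ± 0.13 (95% interval −0.32 to 0.32, limma adjusted p 0.999). A second Junb region, 1.3 kb upstream of the start (chr8:84979602-84980423), had a −log10 q of 2.66 and 2.35 under vehicle and 4.80 and 5.11 under activin, with a log2 difference of 0.00 ± 0.10 (95% interval −0.22 to 0.22, limma adjusted p 0.998).

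Jund (ENSMUSG00000071076), the Jun-type gene with the most constant expression in many cells, had by name only a peak 10.0 kb upstream in vehicle library 2, with a −log10 q of 1.11. The Jund gene itself carried a strong region in all 4 libraries (chr8:70698345-70700241), which began downstream of the RefSeq start and was named for Gm11175. Its −log10 q was 17.5 and 14.9 under vehicle and 24.1 and 16.9 under activin, and its density was 4.50 and 3.67 against 5.02 and 4.80. The −log10 q values overlapped, and the densities did so only after centring. The log2 change, activin minus vehicle, was 0.00 ± 0.09 (95% interval −0.21 to 0.21, limma adjusted p 0.998). No library had a peak over the 250 bases before the RefSeq start of Jund.

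Atf3 (ENSMUSG00000026628), a stress-induced factor of the Atf group that pairs with Jun, showed the same split between name and locus. The 3 regions named Atf3 lay 31.1 to 36.6 kb upstream of the RefSeq start, around a start site that the deposited annotation lists 34.7 kb away, and none was called under activin. The one at that site (chr1:191217894-191218374) had a −log10 q of 1.45 and 1.27 under vehicle. Those 31.1 and 36.6 kb upstream were called in vehicle library 2 alone, with 1.73 and 1.55. The peaks over the RefSeq promoter (chr1:191182452-191185134), named for Gm24748, had a −log10 q of 20.9 and 20.7 under vehicle and 17.3 and 26.2 under activin. Their summed density was 4.39 and 3.92 under vehicle (4.15 ± 0.333, SD, n = 2) and 4.42 and 5.26 under activin (4.84 ± 0.594, SD, n = 2), with a log2 difference of 0.05 ± 0.13 (95% interval −0.25 to 0.35, limma adjusted p 0.917). In activin library 1, where −log10 q was lowest, the region was 1 peak of 2623 bp, while the other libraries had a pair of peaks there.

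**Figure D2:**
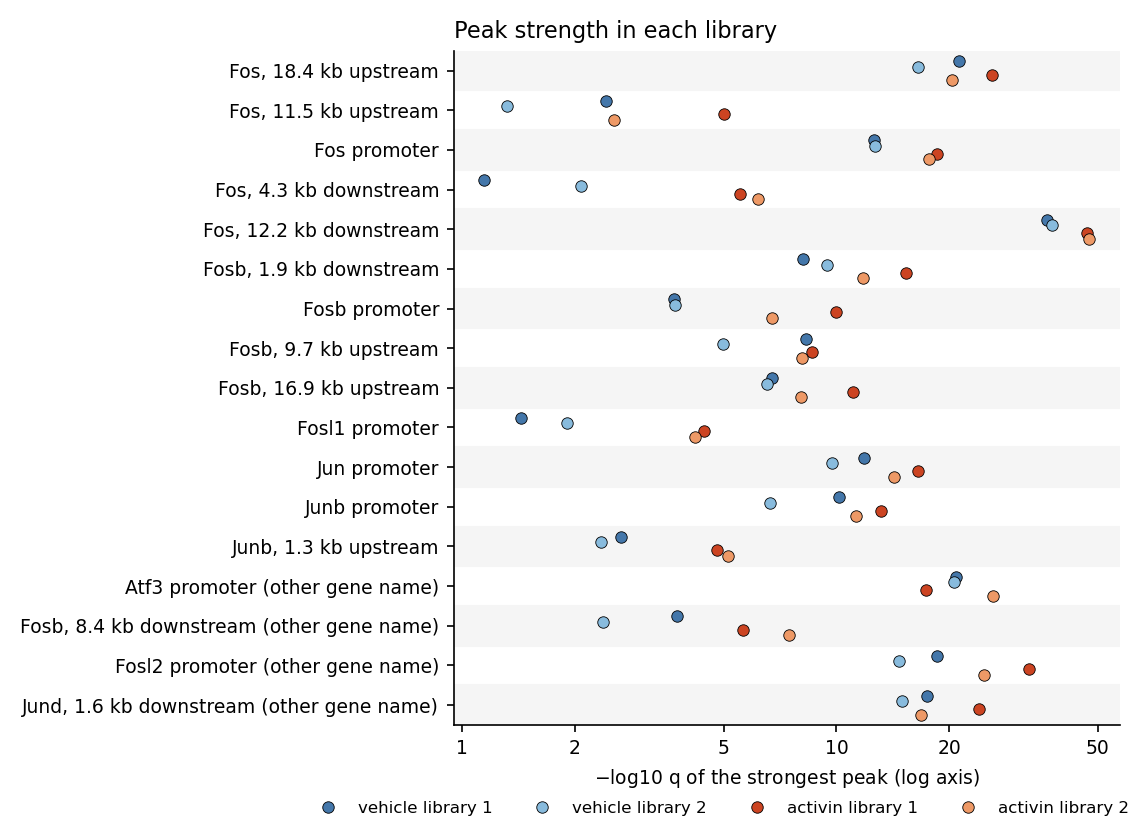
−log10 q of the strongest peak in each library (x axis, log scale) for the 17 AP-1 regions called in all 4 libraries (y axis), 4 of them under another gene name. Both activin libraries were above both vehicle libraries in most rows, with the Fos region 18.4 kb upstream, the Fosb region 9.7 kb upstream, the Atf3 promoter and the Jund gene as exceptions.

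**Figure D3:**
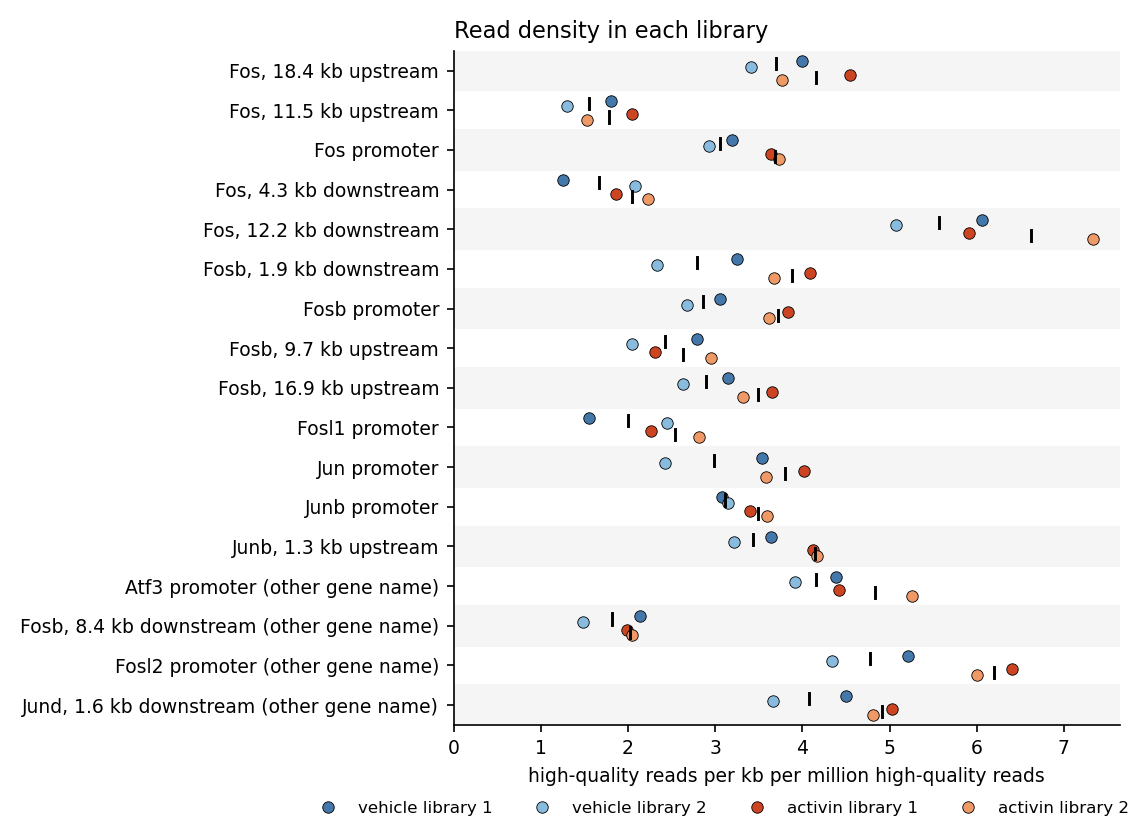
Read density in high-quality reads per kb of peak per 1000000 high-quality reads (x axis) for the same regions, 1 point per library and a black tick at each treatment's mean. Activin means were above vehicle means in every row, by 1.09 to 1.39 times at the 13 regions named for members, while the median ratio over all shared regions was 1.20.

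Across the family, strong peaks named for members numbered 9 in each vehicle library and 12 and 14 in the activin libraries, 1.44 times as many on average, against 1.42 times for all strong peaks (9 ± 0 against 13 ± 1.41, SD, n = 2 each, exact permutation p 0.333, two-sided, which is the smallest p that 2 against 2 allows). With every called peak the order turned, at 25.5 ± 9.19 under vehicle and 19 ± 0 under activin (exact permutation p 1), and the excess was in vehicle library 2 alone. Without that library the difference was 0. When each list was held to as many peaks as the shortest one, there were 17 and 17 under vehicle and 18 and 19 under activin. A joined peak counted once in all these numbers, as at Fos and Junb in activin library 1, where activin library 2 had a pair of strong peaks.

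By presence, 13 of the 34 member regions held a peak in all 4 libraries, against 11.7% of all regions. There were 15 in a single library, 10 of those in vehicle library 2, against 67.4% of all regions in 1 library. Regions called in both vehicle libraries and neither activin library numbered 3 (Fos 31.1 kb downstream, Fosl2 exon 4, and Atf3 at the annotated start), against 4.86% of all regions. There were 0 called in both activin libraries and neither vehicle library, against 1.35% of all regions, and the 3 vehicle-only regions had a −log10 q of at most 2.05. Regions called in both activin libraries and 1 vehicle library numbered 2, both of Fos (13.9 and 38.1 kb downstream), against 2.86% of all regions.

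The −log10 q was higher in both activin than in both vehicle libraries at 11 of the 13 member regions present in all libraries, against 56.8% of all such regions. Among the 9 with a mean −log10 q of at least 5 it was 7, against 74.1%. The higher confidence at AP-1 peaks under activin thus stood in lists in which most strong peaks showed the same.

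In centred density, 8 of the 34 member regions could be tested as shared regions: 2 of Fos, 4 of Fosb, 1 of Jun and 1 of Junb. Of these 8, limma called 0 at an adjusted p under 0.05 (background 0%), and 0 had an unadjusted p under 0.05 (background 9.53%). Over the 13871 shared regions it called 0 as well, with 1322 at an unadjusted p under 0.05 and a smallest adjusted p of 0.184. The activin libraries were both above the 2 vehicle libraries at 2 of the 8, the intron and the promoter of Fosb (background 20.9%), and below them at 0 (background 20.5%). In the wider fit of 13 member regions the groups were apart in the higher direction at 5 (background 24.4%) and in the lower at 0 (background 18.5%), with 0 at an unadjusted p under 0.05 (background 9.4%). The labels do not say whether the libraries of a treatment came from separate cultures, so p-values measure the spread between these libraries, which may be technical.

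The 8 log2 differences ran from −0.15 to 0.22 with a median of 0.00, the same median as over all shared regions by the centring, and the middle 95% of all regions ran from −0.99 to 0.34. Intervals of the 8 reached at most 0.50 upward, at the Fosb intron, and −0.53 downward, at the Fosb region 9.7 kb upstream. Scaled to total high-quality reads instead, the median of all shared regions was 0.27 higher under activin and 605 regions were called (4.36%, 553 higher and 52 lower), of which 0 were AP-1 regions. On that scale both activin libraries were above both vehicle libraries at 5 of the 8 (background 62.2%). An unadjusted p under 0.05 by limma was found at 3 of the 8 (background 32.9%). The lowest adjusted p of the 8 was 0.0572, at the Fosb intron (log2 difference 0.49).

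Peak length moved with several of these values. With log2 reads not divided by length, the differences were 0.42 at the Fos promoter, 0.39 at the Fosb promoter, 0.29 at Jun, 0.48 at the Junb promoter and gene, and 0.70 at Fos 4.3 kb downstream. None had a limma adjusted p under 0.05, while 2 of the 8 shared member regions (10.1% of all) and 4 of the 13 in the wider fit (10.2% of all) had an unadjusted p under 0.05. Summed peak lengths at the Fos promoter were 1445 and 1537 bp under vehicle and 2352 and 1840 bp under activin. Those at Junb were 2382 and 1797 bp against 3655 and 2836 bp, and the Fosb promoter peak measured 419 and 357 bp against 562 and 485 bp. At Fos and Junb the joined peak of activin library 1 also counted the stretch between the pair, which the other sums left out. From end to end, the Fos pair of vehicle library 2 was longer than that joined peak. These lengths were greater in both activin libraries at these 3 regions, and also at Jun, Fos 18.4 kb upstream and Fosb 16.9 kb upstream. They overlapped between groups at the rest of the 13 regions named for members. The share of all regions with greater lengths under activin was not computed.

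**Figure D4:**
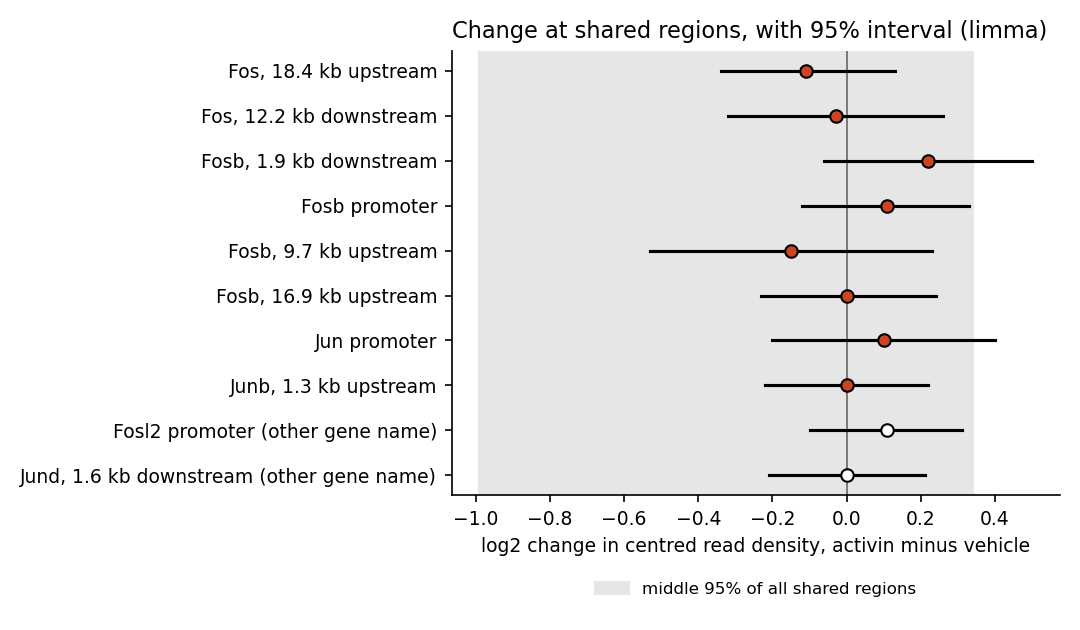
Log2 difference in centred read density, activin minus vehicle (x axis), with 95% intervals from limma, for AP-1 regions with 1 matching peak per library (y axis); open points are regions under another gene name. The grey band is the middle 95% of all 13871 shared regions, −0.99 to 0.34, and every interval includes 0.

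Regions of other genes around AP-1 were measured in the same fit. Of 15 related bZIP genes, such as Batf3, Jdp2, Maff and Nfe2l2, 10 had a shared region, with 14 regions, 0 called and a median log2 difference of 0.07. The widest of these was −0.91 ± 0.63 in a Batf intron, downstream of Fos on chromosome 12, where the groups overlapped, and the highest was 0.32 ± 0.16 at an intron region named Creb1. At the Batf intron the −log10 q went the other way, with 9.26 and 7.29 under vehicle and 23.5 and 15.4 under activin. Of 11 upstream kinases and factors, 5 had a shared region, with 9 regions, 0 called and a median of −0.06. Srf encodes the factor that binds the CArG box. Its region had a −log10 q of 15.3 and 17.7 under vehicle and 24.5 and 21.9 under activin, and a log2 difference of 0.19 ± 0.09 (limma adjusted p 0.535).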

How the data were processed

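ATAC-seq was run on 4 LβT2 libraries, 2 per treatment, grouped by their titles. The submitters' processing notes name Bowtie2, MACS2 and HOMER, with builds GRCm38 and mm10. Per the deposited lists' layout, the authors gave each peak a score (the whole part of 10 times its −log10 q), a fold ratio over background, and −log10 p and q, called in each library alone. The deposited annotation by HOMER gives, per the file headers, the overlapped feature, a gene name and a distance to a start. The deposited quality report of ataqv 1.3.1 gives each autosomal peak's number of overlapping high-quality reads, not a count table, so no count model was run.

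Peaks overlapping by at least 1 bp were merged into regions. log2((reads + 1) per kb) was computed from the deposited reads, centred by subtracting the median of that library, and fitted with limma 3.58.1 (R 4.3.3, eBayes with trend, no block, two-sided, Benjamini-Hochberg over all regions at 0.05). This step was tested on simulated data, only with changes larger than those found at AP-1 regions. The fold scale understates change at regions with few reads. Counts per library were compared by exact permutation. Promoter windows came from RefSeq (7 of 8 members matched by symbol, and 8 of 8 in its gene table). Members and lists were chosen with earlier results of these data known. Regions named were every region with a promoter-annotated peak and every other region in all libraries with a mean −log10 q of at least 5; the weaker regions and those under another gene name were added after their values were seen. Alternatives covered scaling, pseudocount, length, overlap, low reads, the region rule, the replicate block, peak thresholds and leaving out each library. The precision of each value is limited by 2 libraries per treatment.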

Additional observations from a re-analysis of the deposited data

How the results depend on the processing

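The number of regions called over all shared regions was 0, and became 605 with scaling to total reads, 39 without division by length, 1 with a pseudocount of 10 reads and 0 to 9 when a library was left out (9 without activin library 2, 1 without activin library 1). With replicate numbers as a block 4 regions were called, 0 of them of AP-1 genes. The labels do not say whether same-numbered libraries belong together, and the correlation of their deviations was −0.0252. No AP-1 call changed under the block. AP-1 regions with non-overlapping groups numbered 2 of 8 (41.4% of all regions), against 5 of 8 with total scaling (65.9%), 4 of 8 without length division (41.3%), 5 of 13 over all merged regions (42.8%), and 4 to 6 of 8 when a library was left out (69.2% to 73%). At 80% overlap it was 1 of the 1 left (41.7%), Fosb 16.9 kb upstream, lower at −0.09. When a library was left out, an arm of 1 library was assumed to vary like the other.

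Signs turned with total scaling at the Fos regions 18.4 kb upstream (0.16) and 12.2 kb downstream (0.25) and the Fosb region 9.7 kb upstream (0.13). They turned without length division at the same Fos regions (0.14 and 0.03), the Fosb intron (−0.05), Fosl1 (−0.16) and the Atf3 promoter (−0.04), and over all merged regions at Fos 12.2 kb downstream (0.08). Without length division the 3′ end of Fosb moved from 0.01 to 0.73 (limma adjusted p 0.311). Leaving out a library gave −0.22 to 0.17 at Fos 12.2 kb downstream, −0.36 to 0.07 at Fosb 9.7 kb upstream, −0.21 to 0.62 at Fosl1, −0.08 to 0.28 at Jun, −0.09 to 0.19 at the Atf3 promoter, −0.17 to 0.19 at the 3′ end of Fosb, −0.16 to 0.23 at Fos 11.5 kb upstream and −0.29 to 0.61 at Fos 4.3 kb downstream. The cause was not tested.

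The difference in AP-1 peaks per library was −6.5 (−13 to 0 when a library was left out), and turned to 2.5 at a −log10 q of at least 2, 4 at 5, and 1.5 with equal lists. That in strong peaks was 4 and stayed between 3 and 5 under every threshold and library left out. With 2 libraries per treatment, differences inside the printed intervals were not excluded by these data. The intervals were not adjusted for the number of regions tested, while calls used adjusted p-values. They therefore do not give the smallest difference that could have been called.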

Other observations

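The Egr and Nr4a genes, immediate-early genes like Fos that encode zinc finger and nuclear receptor factors, had 10 shared regions over 6 of 7 genes, with 0 called by limma at an adjusted p under 0.05, 1 at an unadjusted p under 0.05 (9.53% of all shared regions) and a median log2 difference of −0.08. The Egr1 promoter had a −log10 q of 15.4 and 13.1 under vehicle and 24.8 and 18.9 under activin, and a log2 difference of 0.09 ± 0.09 (SE, limma adjusted p 0.787). In centred density both activin libraries were above both vehicle libraries there, and below them at the Nr4a1 promoter (−0.12 ± 0.09, limma adjusted p 0.680). The 1 region was the Nr4a3 promoter, at −0.24 ± 0.09 (limma adjusted p 0.491), where activin was likewise the lower group. A region 2.0 kb upstream of Nr4a3 had a −log10 q of 44.6 and 38.2 under vehicle and 52.3 and 38.4 under activin, close to the strongest Fos region.

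At the 3′ end of Fosb, peaks named for Gm26802 were called in all libraries (chr7:19300567-19302769). Those of both activin libraries and vehicle library 2 were annotated as the Gm26802 promoter and that of vehicle library 1 as the transcript end of Fosb. Their −log10 q was 3.75 and 2.38 under vehicle and 5.62 and 7.45 under activin. The log2 difference of the summed density was 0.01 ± 0.19 (SE, limma adjusted p 0.987).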
